A study of Rattus norvegicus with 10 samples.

Results

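Messenger RNA of 10 cholinergic genes was followed in the left hippocampus of 11-month-old male TgF-344AD rats: the muscarinic acetylcholine receptors Chrm1, Chrm2, Chrm3 and Chrm4, the nicotinic receptor subunits Chrna4, Chrna5, Chrna7 and Chrnb2, and the cholinesterases Ache and Bche. The genes were taken by name from 17168 genes in the deposited tables, and all 10 were among the 12161 genes with enough counts to be tested. One RNA library was made from each of 10 rats, and all carried the same transgenic genotype (Tg-AD), so wild-type animals are no part of the comparison. The 5 untreated rats ate rodent chow. The 5 RG2833 rats ate the same chow with 750 mg of RG2833 per kg, started at 5 months of age and continued for 6 months. RG2833 inhibits the histone deacetylases HDAC1 and HDAC3. TgF344-AD rats carry human mutant amyloid precursor protein and presenilin transgenes driven by a mouse prion promoter, so transgene expression is not limited to the hippocampus. The start and length of treatment come from a sentence of the series' design text that names ibudilast, whereas the sample labels name RG2833. The labels do not say whether any rats shared a litter or a cage.

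Acetylcholine reaches the hippocampus mainly in axons from the medial septum and the diagonal band, whose cell bodies lie outside the hippocampus. It acts there on G protein-coupled muscarinic receptors and on nicotinic receptors, which are ion channels built of 5 subunits, and it is cleared by acetylcholinesterase, with butyrylcholinesterase as a second enzyme. Loss of these septal neurons is a known feature of Alzheimer's disease, and inhibitors of cholinesterase are used to treat it.

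Total counts per library ran from 15118187 to 18533512. Levels are given as CPM, the counts of a gene over every 1e6 counts of its library, after TMM scaling of library sizes. Since CPM is not divided by transcript length, levels are compared between libraries and not between genes. Of the hippocampal marker lists, 5 of 6 dentate genes, 6 of 7 CA1 genes and 5 of 6 CA3 genes in the table were tested; dentate Tdo2 was at 0 in all 10 libraries, and CA1 Spink8 was at most 0.188 CPM. Untreated replicate 3 was lowest in the dentate list (-1.30 log2 units from the mean of the 10 libraries) and in the CA3 list (-1.28). Of the 5 dentate genes tested, Prox1 was at 4.30 CPM there and C1ql2 at 7.10 CPM, against at least 21.5 and 38.2 CPM in the other 9 libraries, Stxbp6 and Trpc6 were also lowest there, and Pdzd2 at 87.0 CPM was among the highest. Untreated replicate 2 and RG2833 replicate 1 held much choroid plexus RNA, with Ttr at 6929 and 8190 CPM against at most 236.1 CPM in the other 8 libraries. Chrna4 was highest in 3 libraries, untreated replicate 3 and RG2833 replicates 4 and 5, and these 3 stood apart in several of the members, as given below. Transcript levels of the drug's targets were 34.6 to 42.4 CPM (untreated) and 32.5 to 38.1 CPM (RG2833) for Hdac1, with a log2 fold change of -0.14, and 46.0 to 53.3 and 41.7 to 50.2 CPM for Hdac3, with -0.12; neither passed (edgeR adjusted p = 0.841 and 0.852).

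RG2833 was compared with untreated to ask whether the drug moved the mRNA of cholinergic receptors and esterases. Of the 10 genes, 0 passed edgeR's quasi-likelihood test at an adjusted p under 0.05, and their adjusted p ran from 0.852 to 0.996. Among all genes tested 0 (0%) passed as well, so the count of members is no different from the background. At an unadjusted p under 0.05, 0 members were higher and 0 lower in RG2833, against 2.94% of all genes tested higher and 2.71% lower. Members whose 2 groups did not overlap also numbered 0, against 1.00% of all genes tested. DESeq2 called 7 of all genes, 0 of them members, and the other alternatives likewise called 0 members. Of the members 5 had a higher and 5 a lower mean in RG2833, with a median log2 fold change of -0.01, the same to 2 decimals as over all genes tested (-0.01). In bulk tissue, fewer cells of a type and less RNA per cell cannot be told apart, which holds for each value below.

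**Figure D1:**
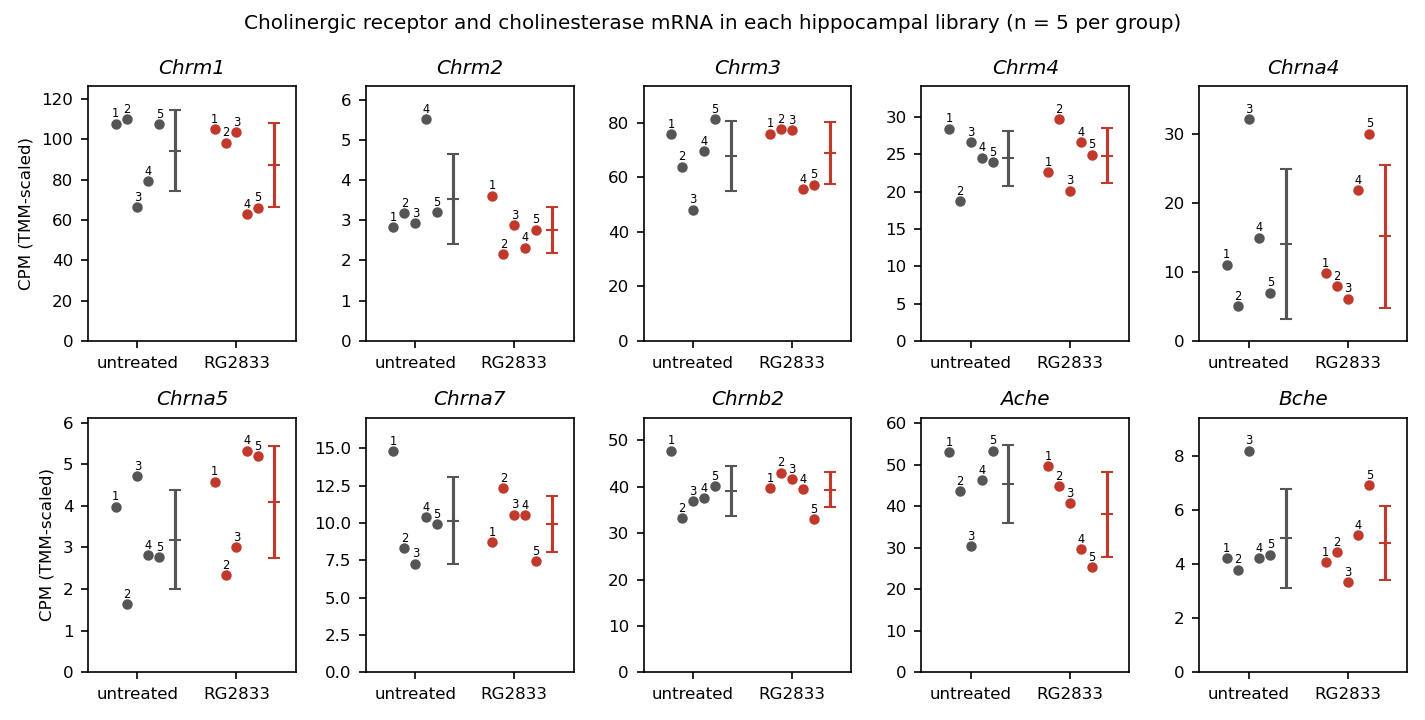
CPM of each of the 10 genes in every library (numbers are replicate numbers), untreated in grey and RG2833 in red, with the mean and SD of each group (n = 5) at its right. The groups overlap for all 10 genes, and untreated replicate 3 and RG2833 replicates 4 and 5 sit high for Chrna4 (21.9 to 32.2 CPM) and low for Chrm1 (63.1 to 66.4 CPM).

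Chrm1 and Chrm3 encode the receptors coupled to Gq proteins, which raise the excitability of pyramidal cells. Chrm1 was at 108, 110.0, 66.4, 79.2 and 108 CPM in untreated replicates 1 to 5 and at 105.0, 98.4, 103.7, 63.1 and 66.1 CPM in RG2833 replicates 1 to 5. The low values, from 63.1 to 79.2 CPM, lay in both groups, and the other 6 libraries were between 98.4 and 110.0 CPM. The log2 fold change was -0.11 (SE 0.19, 95% interval -0.53 to 0.31, edgeR adjusted p = 0.961). Leaving out untreated replicate 3 gave -0.21, leaving out RG2833 replicate 4 gave -0.010, and without the 3 libraries highest in Chrna4 the sign turned, to 0.01. Chrm3 was at 75.9, 63.9, 48.1, 69.5 and 81.3 CPM in untreated and at 76.0, 77.7, 77.3, 55.6 and 57.3 CPM in RG2833 replicates. Its lowest values fell in the same 3 libraries that were lowest in Chrm1. Its log2 fold change was 0.02 (SE 0.15, 95% interval -0.31 to 0.36, adjusted p = 0.996). As folds the intervals are 0.691 to 1.24 for Chrm1 and 0.806 to 1.28 for Chrm3, and changes within these limits are not excluded.

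Chrm2 and Chrm4 encode the receptors coupled to Gi proteins; the Chrm2 product is the classical autoreceptor of cholinergic terminals and is also found on interneurons. Chrm2 had few reads, from 37 to 90 counts per library. It was at 2.83, 3.18, 2.93, 5.51 and 3.20 CPM in untreated and at 3.61, 2.16, 2.88, 2.32 and 2.77 CPM in RG2833 replicates. One library, untreated replicate 4, stood far above the rest, and 4 of the 5 RG2833 values lay below the untreated mean. Its log2 fold change was -0.36 (SE 0.22, 95% interval -0.85 to 0.13), the most negative of the 10, with the smallest unadjusted p among them (0.135 by edgeR, 0.852 adjusted; exact permutation p = 0.167). Without untreated replicate 4 it was -0.14. Chrm4 was at 28.4, 18.7, 26.6, 24.6 and 24.0 CPM in untreated and at 22.7, 29.7, 20.1, 26.6 and 25.0 CPM in RG2833 replicates. High and low values lay in both groups, and the span was 1.59-fold. Its log2 fold change was 0.02 (SE 0.13, 95% interval -0.26 to 0.31, edgeR adjusted p = 0.996). In the RefSeq gene table Chrm4 overlaps Mdk and Chrm2 overlaps Mir490, both of which are in the deposited tables. Whether counting used the strand is not stated, so reads of either pair may not have been told apart. Chrm2, Chrm3, Chrna4, Chrna5 and Ache also overlap RefSeq genes that are absent from the deposited tables.

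Chrna4 and Chrnb2 encode the subunits of the main high-affinity nicotine receptor of the brain, and Chrna5 encodes an accessory subunit that can join them. Chrna4 was the most variable member. It was at 11.1, 5.02, 32.2, 15.000063 and 7.003 CPM in untreated and at 9.87, 7.95, 6.14, 21.9 and 30.1 CPM in RG2833 replicates, a 6.41-fold span from lowest to highest. Only 1.78% of all genes tested had a larger SD of log2 CPM within groups than the 0.999 of Chrna4. High and low values occurred in both groups, and the log2 fold change was 0.11 (SE 0.56, 95% interval -1.12 to 1.35, edgeR adjusted p = 0.995). It turned to -0.29 without RG2833 replicate 5 and was 0.67 without untreated replicate 3. As a fold the interval is 0.459 to 2.55, and changes within it are not excluded.

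Chrnb2, the partner subunit, was the least variable member. It was at 47.7, 33.2, 37.0, 37.5 and 40.2 CPM in untreated and at 39.6, 43.0, 41.6, 39.5 and 33.1 CPM in RG2833 replicates. The 3 libraries highest in Chrna4 were not set apart in Chrnb2. Its log2 fold change was 0.01 (SE 0.10, 95% interval -0.22 to 0.24, edgeR adjusted p = 0.996), the narrowest interval of the 10, which as a fold is 0.860 to 1.18. The log2 ratio of Chrna4 to Chrnb2 counts within a library ran from -2.76 in RG2833 replicate 3 to -0.14 in RG2833 replicate 5, with -0.20 in untreated replicate 3 and -0.85 in RG2833 replicate 4. The group means of this ratio were -1.77 ± 1.03 in untreated and -1.64 ± 1.11 in RG2833 rats (SD, n = 5 each).

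Chrna5 was at 3.98, 1.64, 4.72, 2.82 and 2.77 CPM in untreated and at 4.58, 2.33, 3.01, 5.32 and 5.19 CPM in RG2833 replicates, from 32 to 85 counts. Its highest values lay in the 3 libraries highest in Chrna4 and in RG2833 replicate 1. As a log2 fold change this was 0.36 (SE 0.31, 95% interval -0.32 to 1.04), the most positive of the 10, and did not pass (edgeR adjusted p = 0.916). Without the 2 libraries rich in choroid plexus RNA it was 0.14, without untreated replicate 2, the lowest, it was 0.19, and without untreated replicate 3 it was 0.54. Chrna5 was the only member whose deposited counts were not whole, which shows that at least some reads were divided between features, so its level is less certain. Chrna7, which forms the calcium-permeable homomeric receptor, was at 14.8, 8.30, 7.28, 10.4 and 9.93 CPM in untreated and at 8.71, 12.3, 10.6, 10.5 and 7.47 CPM in RG2833 replicates. Its highest value was untreated replicate 1, and its lowest were untreated replicate 3 and RG2833 replicate 5. The log2 fold change was -0.03 (SE 0.20, 95% interval -0.47 to 0.40, edgeR adjusted p = 0.996).

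Ache encodes acetylcholinesterase, which is made by neurons and splits acetylcholine at the synapse. It was at 52.9, 43.6, 30.4, 46.2 and 53.3 CPM in untreated and at 49.7, 44.8, 40.7, 29.6 and 25.2 CPM in RG2833 replicates. The 3 libraries highest in Chrna4 were lowest in Ache, 1 of them untreated. Untreated rats had a mean of 45.3 ± 9.33 CPM and RG2833 rats one of 38.0 ± 10.3 CPM (SD, n = 5 each), with 4 of 5 RG2833 values below the untreated mean. On the log2 scale the fold change was -0.25 (SE 0.20, 95% interval -0.70 to 0.20, edgeR adjusted p = 0.904). It was -0.12 without those 3 libraries, -0.39 without the 2 libraries rich in choroid plexus RNA, and -0.37 to -0.13 when 1 library was left out. Bche, which encodes butyrylcholinesterase, a less selective enzyme found in glia and white matter, was at 4.21, 3.79, 8.18, 4.22 and 4.34 CPM in untreated and at 4.07, 4.43, 3.33, 5.07 and 6.92 CPM in RG2833 replicates. Its highest values lay in the libraries where Ache was lowest. RG2833 over untreated gave a log2 fold change of -0.06 (SE 0.25, 95% interval -0.62 to 0.51, edgeR adjusted p = 0.994), and it was 0.20 without untreated replicate 3. The ratio of Ache to Bche counts within a library ran from 3.65 to 12.6. On the log2 scale its means were 3.23 ± 0.75 in untreated and 2.99 ± 0.77 in RG2833 rats (SD, n = 5 each), and the lowest values, 1.87 in RG2833 replicate 5 and 1.89 in untreated replicate 3, came from different groups. The other ratios also overlapped: log2 Chrm1 to Chrm3 ran from 0.19 to 0.78 in untreated and from 0.18 to 0.47 in RG2833 libraries, log2 Chrm2 to Chrm4 from -3.33 to -2.16 and from -3.78 to -2.65, and log2 Chrna5 to Chrna4 from -2.77 to -1.34 and from -2.54 to -1.03.

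**Figure D2:**
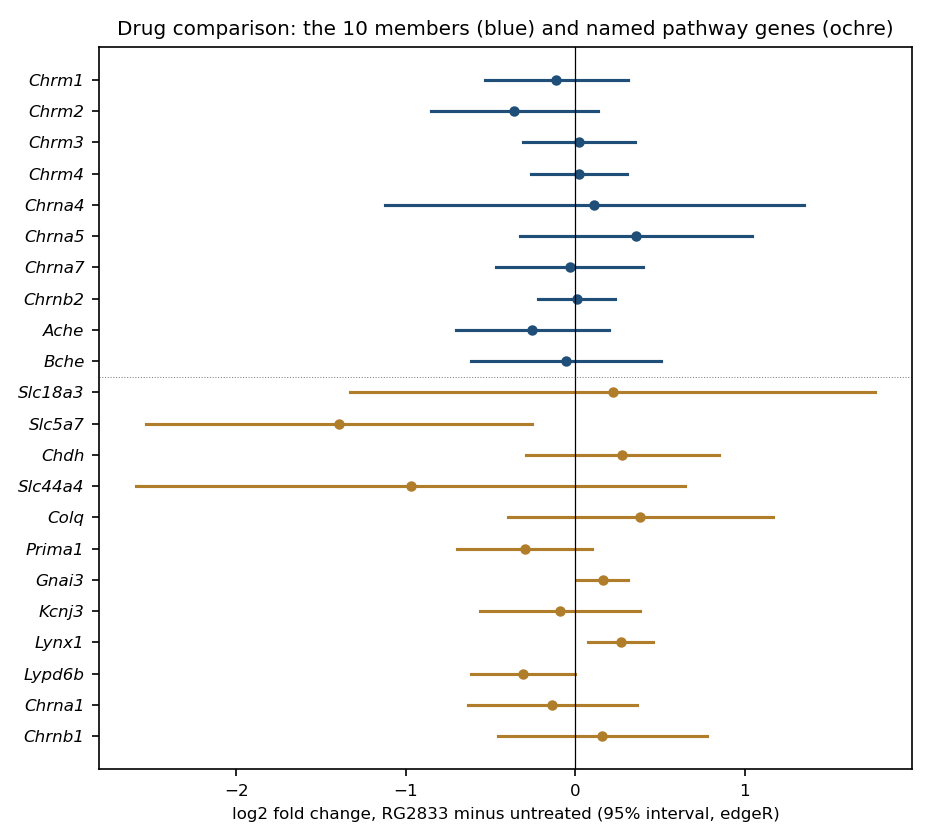
Log2 fold change of RG2833 over untreated with its 95% interval (edgeR) for the 10 members in blue and for 12 named genes of the cholinergic pathway in ochre. All 10 member intervals include 0; Chrnb2 has the narrowest (-0.22 to 0.24) and Chrna4 the widest (-1.12 to 1.35).

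The rest of the pathway was read from lists of 48 genes, of which 46 matched the table and 38 were tested. In edgeR's test 0 of the 38 had an adjusted p under 0.05; 19 had a higher and 19 a lower mean in RG2833, and 2 in each direction had an unadjusted p under 0.05, where the shares over all genes tested were 2.94% higher and 2.71% lower. The median log2 fold change of the 38 was 0.0047.

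All 4 genes that make and load acetylcholine were tested, 1 higher and 3 lower in RG2833. Slc5a7, the choline transporter of cholinergic terminals, had 11, 24, 51, 28 and 9 counts in untreated and 5, 7, 6, 12 and 12 counts in RG2833 replicates. That is 0.49 to 3.04 CPM against 0.32 to 0.83 CPM, with every RG2833 library under the untreated mean of 1.42 CPM and the ranges overlapping. Its log2 fold change was -1.39 (SE 0.52, 95% interval -2.53 to -0.25; unadjusted p = 0.0212, edgeR adjusted p = 0.841; exact permutation p = 0.0714), so it did not pass. It ran from -1.62 to -0.92 when 1 library was left out, with -0.92 without untreated replicate 3 (unadjusted p = 0.0616). The smallest unadjusted p was 0.00663 (edgeR), without untreated replicate 5, and the smallest adjusted p of any alternative was 0.372. By limma-voom with sample weights it was -0.87 (unadjusted p = 0.0743). By limma on log2(CPM + 1) it was -0.57, where the added 1 shrinks fold changes at levels this low. Chat, the synthetic enzyme, was at 1.79 to 3.40 CPM in untreated and 1.59 to 2.94 CPM in RG2833 libraries. Slc18a3, the vesicular transporter, had 5, 5, 23, 10 and 7 counts in untreated and 11, 0, 8, 14 and 19 in RG2833 replicates (log2 fold change 0.22, SE 0.70).

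Regulators of the nicotinic receptor held the smallest p of the pathway. Lynx1 encodes a membrane-anchored protein that binds nicotinic receptors and dampens their response. It was at 348.4, 263, 337, 309 and 332 CPM in untreated and at 344.2, 381, 377, 404 and 406 CPM in RG2833 replicates. Every RG2833 library was above the untreated mean, and the groups overlapped because untreated replicate 1 was above RG2833 replicate 1. This gave a log2 fold change of 0.27 (SE 0.09, 95% interval 0.08 to 0.46), with an unadjusted p of 0.0104 and an edgeR adjusted p of 0.841; the exact permutation p was 0.0159, not adjusted for the genes tested. It kept its sign in every alternative run, from 0.21 to 0.30. All 10 genes of the astrocyte marker list also had a higher mean in RG2833, where 46.5% of all genes tested did. Of the 10, 3 had an unadjusted p under 0.05, where 2.94% of all genes tested were higher at that threshold. None passed (smallest edgeR adjusted p 0.841). The 10 genes were measured in the same libraries, so they are not 10 separate observations. The list's summed level was 5541 to 8149 CPM in untreated and 6289 to 9006 CPM in RG2833 libraries, no marker was at 0, and its part in the value of Lynx1 was not tested. Lypd6b, a relative of Lynx1, had the opposite direction, at 4.20 to 5.33 CPM in untreated and 2.88 to 4.32 CPM in RG2833 libraries (log2 fold change -0.31, SE 0.14; unadjusted p = 0.0497, edgeR adjusted p = 0.841). Of the 5 tested genes of this list, 3 were higher and 2 lower in RG2833.

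Among 13 genes that carry muscarinic signals, 7 were higher and 6 lower. Gnai3, a Gi protein subunit, was at 52.0 to 63.2 CPM in untreated and 61.7 to 69.5 CPM in RG2833 libraries (log2 fold change 0.16, SE 0.07; unadjusted p = 0.0401, edgeR adjusted p = 0.841). The lowest log2 fold change of the list was that of Kcnj3, a subunit of the potassium channel opened by Gi-coupled receptors, at -0.09 (SE 0.21), with a range of -0.23 to -0.0031 when 1 library was left out. Of the anchors that hold cholinesterase to membranes, Prima1 had 10.4, 11.9, 13.3, 15.7 and 16.1 CPM in untreated and 9.94, 9.48, 9.27, 10.0 and 16.3 CPM in RG2833 replicates. In RG2833 4 of the 5 libraries thus lay below every untreated one, and RG2833 replicate 5 above them all. The log2 fold change was -0.30 (SE 0.18, unadjusted p = 0.126, edgeR adjusted p = 0.845). It ran from -0.48 (without RG2833 replicate 5) to -0.23 when 1 library was left out, and was -0.46 by limma-voom with sample weights. The smallest unadjusted p of 23 alternatives was 0.00573 (edgeR), without RG2833 replicate 5, which removes the 1 value going the other way. The smallest adjusted p was 0.425, by limma-voom. Colq, the collagen-tailed anchor, had 4 to 26 counts and a log2 fold change of 0.38 (SE 0.35; 0.17 to 0.59 when 1 library was left out, the extremes being without untreated replicates 3 and 1). The 9 genes of choline uptake and use ran from -0.97 for Slc44a4 (SE 0.73, 1 to 67 counts; -1.76 without RG2833 replicate 1 and -0.48 without untreated replicate 2, the 2 libraries rich in choroid plexus RNA) to 0.28 for Chdh (SE 0.26; 0.17 to 0.42 when 1 library was left out). Of 13 other receptor genes, 8 had too few counts to be tested; the 5 tested ran from -0.13 for Chrna1 (SE 0.23) to 0.16 for Chrnb1 (SE 0.28). Without RG2833 replicate 1 Chrnb1 was at 0.0060, and without untreated replicate 2 at 0.37; Chrna1 was at 0.05 without untreated replicate 3.

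Members varied between rats of 1 group, and several did so together. The correlation of each member with 13 cell type marker lists (130 pairs) and with each other member (45 pairs) was taken over log2 CPM of the 10 libraries, with two-sided permutation p-values adjusted over all 175 pairs. At an adjusted p under 0.05, 28 list pairs and 10 member pairs passed by Pearson's r; by Spearman's rho 11 and 1 did. By both measures 9 list pairs and 1 member pair passed. The permutation p-values printed with rho below are not adjusted. Adjusted, the rho of Chrm3 with the CA3 list and of Chrm2 with the thalamic list did not pass (both 0.0696). Nor did that of Chrm1 with Chrna4 (0.0953). All 38 relations that passed by r had the same sign within untreated and within RG2833 libraries. Without untreated replicate 3 and RG2833 replicates 4 and 5, 0 of the 38 passed over the 7 other libraries, 6 changed sign, and 15 kept an r beyond 0.5 in the same direction. Those 3 libraries were chosen as the highest in Chrna4 and are also the lowest in Chrm1, Chrm3 and Ache and the highest in Bche. Leaving them out thus removes the extremes of these members, which by itself alters r, so for these members the values over 7 libraries do not measure how firm a relation is.

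Chrm1 and Chrna4 were related to the neocortical marker list with opposite signs. Chrm1 fell with this list (r = -0.947, permutation p = 0.00032, adjusted 0.00933; rho = -0.915, permutation p = 0.00042), and r was -0.975 without the 2 libraries highest in the list, RG2833 replicates 4 and 5. Over the 7 libraries named above r was -0.935. It was -0.693 when untreated replicate 4, the next lowest in Chrm1, was left out as well. Chrna4 rose with the same list (r = 0.920, permutation p = 0.0003, adjusted 0.00933; rho = 0.879, permutation p = 0.00164), with r of 0.925 without RG2833 replicates 4 and 5. For Chrna4 r was 0.798 over those 7 libraries and 0.550 when untreated replicate 4 was left out as well. Within groups r was -0.986 and -0.942 for Chrm1, and 0.925 and 0.983 for Chrna4, in untreated and RG2833 libraries. All 10 genes of the neocortical list were in the table with none at 0, but they did not all follow the list's mean: in untreated replicate 3 Cux2 was highest of the 10 libraries at 140.9 CPM, while Fezf2 at 20.8 CPM and Tle4 at 59.4 CPM were lowest. The list's summed level was 359.8 to 532 CPM in untreated and 407 to 597 CPM in RG2833 libraries. Chrna4 also rose with the striatal list (r = 0.933, permutation p = 0.00021, adjusted 0.00933; rho = 0.891, permutation p = 0.00117; r = 0.848 without untreated replicate 3 and RG2833 replicate 5). Between themselves Chrm1 and Chrna4 had an r of -0.922 (permutation p = 0.00071, adjusted 0.0148; rho = -0.770, permutation p = 0.0125; -0.861 without untreated replicate 3 and RG2833 replicate 5). Chrm1 also passed by r with the astrocyte, microglial, endothelial, striatal and CA3 lists, and its rho with the astrocyte list was -0.952 (permutation p = 7e-05; r = -0.805, permutation p = 0.00892, adjusted 0.0411). Chrna4 also passed with the microglial, dentate and CA3 lists. The part of tissue makeup in these levels was not tested.

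**Figure D3:**
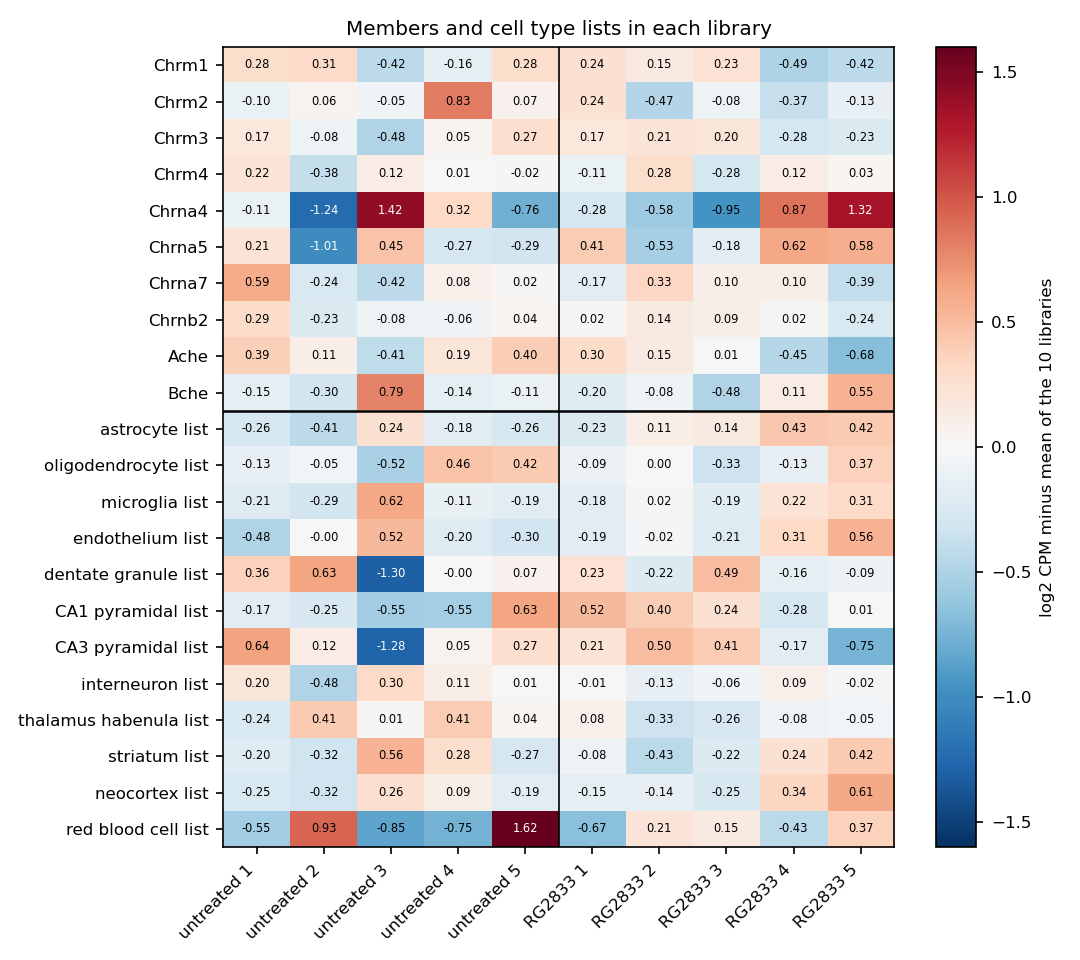
Log2 CPM of the 10 members (upper rows) and mean log2 CPM of 12 marker lists (lower rows) in each library, as the difference from the mean of the 10 libraries; the choroid plexus list is left out for its range. In untreated replicate 3 and RG2833 replicates 4 and 5 Chrna4 is high (1.42, 0.87 and 1.32) while Chrm1 is low (-0.42, -0.49 and -0.42), whatever the treatment.

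By r each esterase passed with several lists, most closely with a different one. Bche rose with the microglial list (r = 0.940, permutation p = 7e-05, adjusted 0.00933; rho = 0.891, permutation p = 0.00091). This r was 0.759 without untreated replicate 3 and RG2833 replicate 5 and 0.505 over the 7 libraries. By rho Bche was closest to the dentate list (rho = -0.915, permutation p = 0.00053). Its r with that list was -0.854 (permutation p = 0.00098, adjusted 0.0156), and -0.757 over the 7 libraries. Bche also fell with the CA3 list (r = -0.907, permutation p = 0.00214, adjusted 0.0244). The microglial list had all 10 genes in the table, none at 0, and summed to 612 to 1126 CPM in untreated and 655 to 914 CPM in RG2833 libraries. Ache fell with the endothelial list (r = -0.944, permutation p = 0.00029, adjusted 0.00933; rho = -0.842, permutation p = 0.00341; r = -0.881 without untreated replicate 3 and RG2833 replicate 5, -0.678 over the 7 libraries). The endothelial list had 9 of 10 genes in the table, none at 0, with sums of 421 to 816 CPM in untreated and 499 to 856 CPM in RG2833 libraries. The relation between Ache and Bche themselves did not pass (r = -0.741, permutation p = 0.0173, adjusted 0.0671; rho = -0.442, permutation p = 0.203; r = -0.314 without untreated replicate 3 and RG2833 replicate 5).

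Chrm3 rose with the CA3 pyramidal list (r = 0.905, permutation p = 0.0005, adjusted 0.0125; rho = 0.818, permutation p = 0.00597; r = 0.788 without untreated replicate 3 and RG2833 replicate 5, 0.577 over the 7 libraries). Of that list 5 of 6 genes were tested, and Iyd was at 0 in at least 1 library; the sums were 203 to 680 CPM in untreated and 259 to 620.2 CPM in RG2833 libraries. Chrm2 passed with 1 list, that of thalamus and habenula (r = 0.754, permutation p = 0.00808, adjusted 0.0393; rho = 0.818, permutation p = 0.00578; r = 0.673 without untreated replicates 2 and 4). Of the thalamic list 8 of 10 genes were in the table and 7 were tested, with sums of 59.9 to 88.0 CPM in untreated and 57.0 to 72.0 CPM in RG2833 libraries. Its genes did not all follow the list's mean. In untreated replicate 4 Zic1 (26.7 CPM), Slc17a6 (16.7 CPM) and Ramp3 (5.76 CPM) were highest of the 10 libraries. Lef1 at 3.92 CPM and Tcf7l2 at 11.4 CPM there lay below untreated replicate 3, with 7.64 and 14.0 CPM. A relation between 2 members that was as large without the 3 libraries was that of Chrna7 and Chrnb2, with an r of 0.874 over 10 libraries (permutation p = 0.00133, adjusted 0.0179; rho = 0.867, permutation p = 0.00199), of 0.709 without untreated replicate 1 and RG2833 replicate 5, and of 0.877 over the 7. Chrna4 and Chrnb2, the subunits of 1 receptor type, had an r of -0.279 (permutation p = 0.434, adjusted 0.613; rho = -0.370, permutation p = 0.296; -0.058 without untreated replicate 1 and RG2833 replicate 5). Its sign differed between the groups, at 0.111 in untreated and -0.838 in RG2833 libraries, a difference that was not tested, and it was 0.347 over the 7 libraries.

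**Figure D4:**
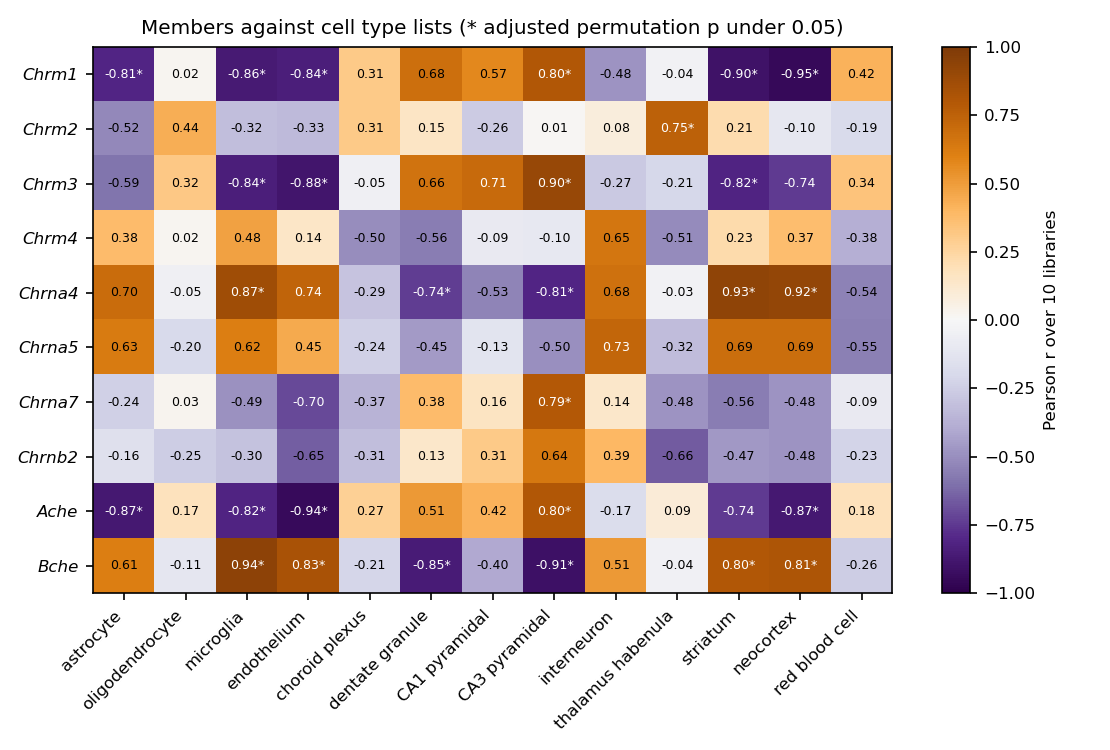
Pearson's r over 10 libraries between each member and each of 13 marker lists, with * for an adjusted permutation p under 0.05 (28 of 130 pairs). Chrm1, Chrm3 and Ache share a sign against the microglial, endothelial, striatal and neocortical lists, and Chrna4 and Bche have the other sign.

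**Figure D5:**
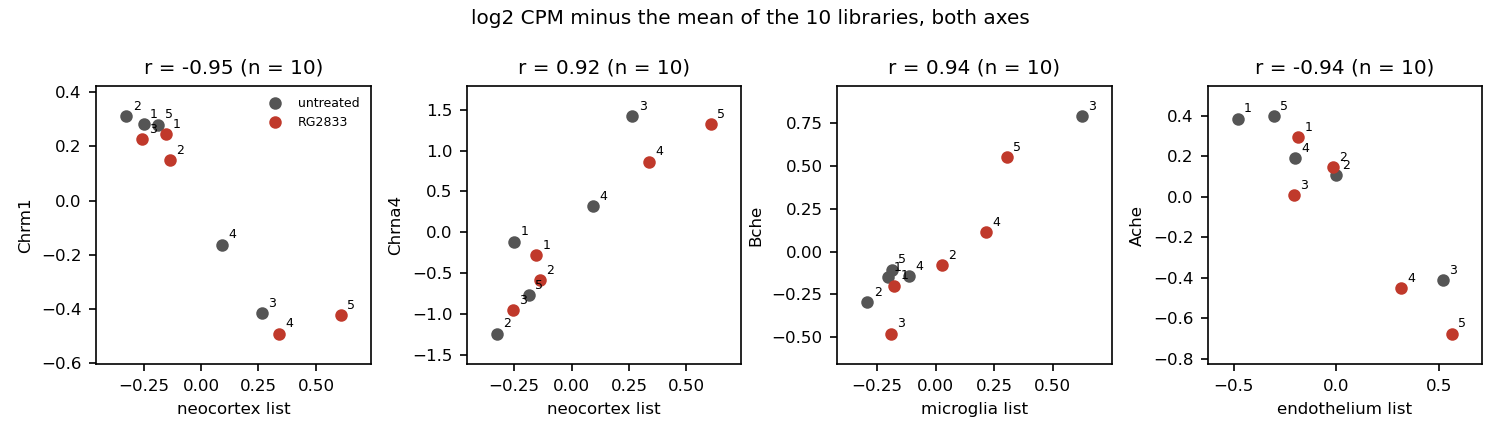
Each library's log2 CPM of a member (vertical) against the mean log2 CPM of a marker list (horizontal), both minus the mean of the 10 libraries; numbers are replicate numbers. Untreated replicate 3 and RG2833 replicates 4 and 5 lie at 1 end in all 4 plots, and the remaining libraries of both groups mix.

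The upstream sequences of the pair that moved apart, Chrm1 and Chrna4, and of the pair that moved together, Chrna7 and Chrnb2, are shown to let their promoters be compared. Each is the 250 bases before the annotated start in RefSeq, read 5′ to 3′ on the gene's strand, with GC boxes (GGGCGG on either strand) in capitals; all 10 members matched an entry. Positions are of the GRCr8 build: chr1:214996109-214996358 (+ strand) for Chrm1, chr3:188534527-188534776 (- strand) for Chrna4, chr1:126249130-126249379 (- strand) for Chrna7 and chr2:177487307-177487556 (- strand) for Chrnb2.
Chrm1: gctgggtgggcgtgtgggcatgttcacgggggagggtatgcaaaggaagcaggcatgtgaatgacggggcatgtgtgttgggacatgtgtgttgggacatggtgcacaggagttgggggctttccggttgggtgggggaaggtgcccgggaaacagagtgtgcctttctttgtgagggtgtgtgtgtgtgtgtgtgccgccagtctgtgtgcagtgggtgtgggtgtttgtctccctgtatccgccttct
Chrna4: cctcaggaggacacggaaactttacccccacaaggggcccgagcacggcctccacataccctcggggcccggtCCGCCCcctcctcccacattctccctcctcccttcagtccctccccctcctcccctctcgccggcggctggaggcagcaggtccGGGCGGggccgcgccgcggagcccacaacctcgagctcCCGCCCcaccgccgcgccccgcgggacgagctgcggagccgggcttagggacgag
Chrna7: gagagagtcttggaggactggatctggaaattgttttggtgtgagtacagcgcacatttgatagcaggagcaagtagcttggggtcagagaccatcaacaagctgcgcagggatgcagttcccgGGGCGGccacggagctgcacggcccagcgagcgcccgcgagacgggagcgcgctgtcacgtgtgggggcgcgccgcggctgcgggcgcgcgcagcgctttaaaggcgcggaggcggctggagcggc
Chrnb2: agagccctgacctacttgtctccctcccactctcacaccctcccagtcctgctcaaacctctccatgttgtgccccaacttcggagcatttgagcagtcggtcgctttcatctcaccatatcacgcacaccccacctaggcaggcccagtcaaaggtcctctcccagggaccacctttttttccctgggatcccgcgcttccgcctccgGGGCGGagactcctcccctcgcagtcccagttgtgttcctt
The Chrm1 window held 0 GC boxes and 7 CpG dinucleotides, and the Chrna4 window 3 GC boxes and 26 CpG. Chrna7 and Chrnb2 had 1 GC box each, with 27 and 10 CpG. Of all 33469 RefSeq windows of this length 30.5% held a GC box, and the median was 5 CpG. The E-box letters CANNTG, which read alike on both strands, occurred 3 times for Chrm1, 0 times for Chrna4 and 2 times each for Chrna7 and Chrnb2, against 65.5% of all windows with at least 1. A match describes the letters only, and none of these counts was tested against the levels.

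The genes most like each member were taken as the 3 with the largest r over 10 libraries after the group means were subtracted. They are named as a description, since among 12161 genes high values are always found. For Chrm1 they were Ica1, Slc7a4 and Rtn4r (r from 0.983 to 0.992), for Chrm2 Smek2, Papd5 and Tmed5 (0.940 to 0.967), for Chrm3 Rtn4, Sort1 and Apbb1 (0.993 to 0.996), and for Chrm4 RGD1563348, Gpr162 and Sectm1 (0.891 to 0.931). For Chrna4 they were Rassf5, Cckbr and Elavl4 (0.979 to 0.984), for Chrna5 Atpaf1, Slc6a5 and Lmtk2 (0.943 to 0.944), for Chrna7 Ran, Slc25a22 and C2cd5 (0.947 to 0.971), and for Chrnb2 Slc45a1, Ccrn4l and Ptdss1 (0.960 to 0.981). For Ache they were Scamp1, Usp10 and Mcts1 (0.976 to 0.982), and for Bche Tyrobp, Gcdh and Fcgr2b (0.975 to 0.978).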

How the data were processed

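Per the labels' protocols, mRNA of 10 left hippocampi was sequenced with a stranded Kapa kit. The authors deposited RSEM expected counts per gene and a second table of TMM-normalized CPM signal; bcl2fastq 2.17, Bowtie2 2.1.0, RSEM 1.2.15, edgeR and the rn6 build are named in the submitters' processing notes, and the annotation is not given in the sources used here. Of values above 0 in the deposited signal, 100% were whole multiples of 1 step per library (tolerance 0.01 of a read), and the reads recovered equalled the rounded counts for all members; edgeR on these reads called 0 genes.

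Expected counts were rounded and fitted with edgeR 4.0.16 (R 4.3.3; filterByExpr, minimum count 10 and minimum total 15; TMM; robust quasi-likelihood F test), RG2833 against untreated, with Benjamini-Hochberg adjustment over 12161 genes. The prior count for log2 CPM was 2. Values of 1 gene were compared by two-sided exact permutation over 252 regroupings, and correlations by 100000 permutations. The labels give no litter, cage or library batch of the rats, so p-values measure the spread between these samples. The scripts were tested on simulated data. Alternatives included DESeq2 1.42.0 and limma 3.58.1.

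The members and gene lists were chosen with earlier results of these data known. The genes named are all members, pathway genes at an unadjusted p under 0.05, the highest and lowest of each pathway list, Hdac1 and Hdac3, and the 3 genes most like each member; 1 gene that this rule names is not reported here. Chat, Ttr, Prox1, C1ql2, Stxbp6, Trpc6, Pdzd2, Tdo2, Spink8, Iyd, Cux2, Fezf2, Tle4, Zic1, Slc17a6, Ramp3, Lef1 and Tcf7l2 were added after their values were seen. RefSeq tables (GRCr8) gave promoter sequences and gene overlaps, and Mdk and Mir490 are named only for their overlaps with members. Replicate numbers do not pair the rats: the deviations of same-numbered libraries from their group means had correlations from -0.49 to -0.03.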

Additional observations from a re-analysis of the deposited data

Results flagged for a closer look

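Levels are listed here where the highest or lowest library of a group lay apart from its nearest neighbour by more than 0.71 of the group's range. This was so in 5 of 72 sets of 5 values, where chance gives 3.6. Chrm2 in untreated replicate 4, at 5.51 CPM (90 counts) where the rest of that group had 2.83 to 3.20 CPM, stood out by 0.815 of the range. Bche in untreated replicate 3, at 8.18 CPM (137 counts) against 3.79 to 4.34 CPM, stood out by 0.824. Prima1 in RG2833 replicate 5, at 16.3 CPM (235 counts) against 9.27 to 10.0 CPM, stood out by 0.862. The microglial list was high by 0.806 of the range in untreated replicate 3, the library of the high Bche value. The choroid plexus list was high by 0.714 in RG2833 replicate 1. Causes were not tested.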

How the results depend on the processing

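Over 23 alternatives, of which 2 were chosen after the data were seen (leaving out untreated replicate 3 with RG2833 replicates 4 and 5, and the reads recovered from the CPM table), the count of members was 0 at an adjusted p, 0 at an unadjusted p under 0.05 and 0 for groups that did not overlap, and 0 pathway genes passed. The replicate block gave 0 as well, and 401 genes at an unadjusted p under 0.05 against 688 without it. Signs of small log2 fold changes turned. In limma-voom with sample weights they were -0.031 for Chrm3, 0.0013 for Bche, 0.11 for Chrna1 and -0.70 for Slc18a3, and limma on log2(CPM + 0.1) gave -0.00017 for Slc18a3. Without the 2 libraries rich in choroid plexus RNA they were -0.043 for Chrm3, -0.037 for Chrm4, -0.053 for Chrnb2 and -0.0054 for Slc18a3. Without untreated replicate 3 and RG2833 replicates 4 and 5 they were 0.013 for Chrm1, -0.26 for Chrna4 and 0.028 for Chrna1. Leaving out 1 library at a time gave ranges of -0.077 to 0.099 for Chrm3, -0.061 to 0.088 for Chrm4, -0.29 to 0.67 for Chrna4, -0.13 to 0.14 for Chrna7, -0.044 to 0.091 for Chrnb2, -0.22 to 0.20 for Bche, -0.27 to 0.052 for Chrna1 and -0.15 to 0.80 for Slc18a3. The ranges were -0.21 to -0.010 for Chrm1, -0.48 to -0.14 for Chrm2, 0.19 to 0.54 for Chrna5 and -0.37 to -0.13 for Ache, and the last 3 kept their signs in all alternatives. The causes were not tested. Of the 38 correlations, 37 still passed with RLE size factors and 26 without the 2 libraries rich in choroid plexus RNA, and all 38 kept their sign in both. Of the 28 with marker lists, 0 passed in the 7 libraries left without untreated replicate 3 and RG2833 replicates 4 and 5, where fewer libraries enter the test and the extremes of Chrna4 are gone. Counts under 100 in every library limit Chrm2, Chrna5, Slc5a7, Slc18a3, Chat, Colq, Slc44a4, Chdh, Chrnb1, Lypd6b and Ramp3, and Bche had under 100 in 8 of 10. Chrna1 had 44 to 106 counts.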
